A study of Mus musculus with 24 samples.

Results

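The 7 genes described here, Otx1, Foxl2, Nkx2-5, Pitx1, Barx1, Alx4 and Six2, encode transcription factors with known roles in building the head, and were followed among the 18368 genes measured in mouse skin from 3 anatomical sites. They were named from their developmental roles, and 3 of them, Otx1, Foxl2 and Nkx2-5, were chosen on their cheek-specific levels in these same libraries. For these 3 the difference between sites is therefore given as a description without a test, whereas Pitx1, Barx1, Alx4 and Six2 were compared between sites. Whole skin of 12 outbred CD1 mice, 7 weeks old and labelled as coordinated in telogen, the resting phase of the hair cycle, was sequenced from total RNA. Each mouse contributed 1 site, either abdomen (dermis from lateral plate mesoderm), back (paraxial mesoderm) or cheek (cranial neural crest), with 4 mice per site. From each animal, unwounded skin beside the injury and a 2 mm excisional wound on day 3 gave 1 library each, 24 in all. Abdomen and back mice carried 2 wounds and cheek mice 1, so the number of wounds and the site cannot be told apart.

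Transcription factors of the homeobox and forkhead families divide the embryo into regions, and cranial neural crest cells, which lack most Hox expression, rely on such factors to shape the jaws, the skull vault and the connective tissue around the eye. Part of this positional code is kept by adult fibroblasts. Otx1 acts in the forebrain and sense organs, Foxl2 in the ovary and eyelid, Nkx2-5 in the heart and pharynx, Pitx1 in the hindlimb, mandible and pituitary, Barx1 in the molar-forming jaw and the stomach, Alx4 in the frontonasal skeleton and in skin, and Six2 in kidney progenitors and the frontonasal mesenchyme.

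Levels are FPKM (fragments scaled to transcript length and sequencing depth), rounded to 2 decimals. The summed FPKM ran from 490830 to 608888 per library, and 15781 to 16577 genes were above 0. The read totals behind these values are unknown. A relative depth taken from the lowest values above 0 of 147 low genes ran from 0.964 to 1.01. It used only values close to the lowest of each gene, which holds it near 1. Even depth therefore cannot be read from it. All 7 genes were low, none above 8 FPKM in any library, so a value of 0 means not detected at this depth. The skin carried its defining markers: the summed FPKM of 7 epidermal genes was 5586 to 18565 and that of 8 fibroblast genes 6136 to 23537, with none at 0 in any group. Further lists of marker genes had summed FPKM of 634 to 2803 for adipocytes, 1104 to 2724 for sebaceous gland, 123 to 652 for Schwann cells, 17.3 to 78.2 for melanocytes, 4.87 to 26.2 for salivary and lacrimal gland and 0.68 to 2.43 for cartilage and bone. Neutrophil markers summed to 8.47 to 37.8 in unwounded skin and 351 to 2408 in wounds, and macrophage markers to 724 to 1526 and 1452 to 2795. Skeletal muscle genes and hair growth genes varied widely between mice of 1 site and are given beside the results they move with. The hair growth sum was 22.6, 65.9 and 4106 FPKM in the unwounded skin of cheek mouse 3, back mouse 2 and cheek mouse 4, against 4.24 to 7.38 in the other 9 unwounded libraries, so these 3 libraries go against the telogen label. In bulk skin, fewer cells of a type and less RNA per cell cannot be told apart.

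The upstream sequence of 2 of the genes is shown for the contrast in their levels, since Nkx2-5 was detected at 1 site only and Six2 at all 3. RefSeq promoter windows (GRCm38.p6) were at hand for 4 of the 7 genes. The stretches below end where the first annotated exon begins, run 5′ to 3′ on the coding strand, and carry each CG dinucleotide in capitals. The Nkx2-5 stretch precedes the shorter transcript and lies in an intron of a longer one in the GENCODE annotation.
Nkx2-5 (chr17:26841609-26841815, minus strand): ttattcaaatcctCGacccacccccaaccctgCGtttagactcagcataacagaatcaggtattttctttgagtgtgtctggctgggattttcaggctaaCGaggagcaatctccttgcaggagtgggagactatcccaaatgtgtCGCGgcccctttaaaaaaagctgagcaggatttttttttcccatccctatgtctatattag
Six2 (chr17:85688275-85688504, minus strand): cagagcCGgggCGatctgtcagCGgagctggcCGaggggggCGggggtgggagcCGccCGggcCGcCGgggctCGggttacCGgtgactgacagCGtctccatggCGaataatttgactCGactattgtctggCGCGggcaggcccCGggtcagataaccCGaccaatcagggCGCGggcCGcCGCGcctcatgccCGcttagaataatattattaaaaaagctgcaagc
The Nkx2-5 stretch held 5 CG dinucleotides in 207 bases, and the Six2 stretch 24 in 230 bases. The full windows of 250 bases held 8 for Nkx2-5, 26 for Six2, 22 for Foxl2 and 40 for Barx1, against a median of 6. A link between CG content and the levels was not tested. Over the full 250 bases before the start, GC content was 49.2% for Nkx2-5 and 64.8% for Six2, and it was 70.8% for Foxl2 and 85.6% for Barx1, against a median of 52.0% over 27025 promoters. The letters TAATCC, bound by OTX and PITX proteins, TNAAGTG, bound by NKX2 proteins, TGTTTAC, bound by forkhead proteins, and TATAAA were searched on both strands. None of these 4 motifs was found in the 4 windows, while 6.38%, 10.0%, 3.09% and 13.0% of all promoters held them, respectively.

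The levels of the 3 genes chosen on cheek-specific expression come first. Otx1 (chr11:21994764-22001651) had 3.88, 3.99, 8 and 5.74 FPKM in the unwounded cheek of mice 1 to 4. In unwounded abdomen it had 0.57, 2.16, 0.44 and 0.31 FPKM, and in unwounded back 0.09, 0, 0 and 0.07 FPKM. The 3 sites therefore formed 3 separate ranges, in the order back, abdomen, cheek, with means of 0.04 ± 0.047, 0.87 ± 0.87 and 5.40 ± 1.93 FPKM (SD, n = 4). Wounds kept this order. Otx1 was at 4.74, 4.45, 4.79 and 4.17 FPKM in cheek wounds, at 1.66, 0.59, 0.54 and 0.47 FPKM in abdomen wounds and at 0.17, 0.10, 0.04 and 0.27 FPKM in back wounds, again without overlap. In unwounded abdomen, mouse 2 held the highest value and the other 3 mice stayed at or below 0.57 FPKM. The same library had the lowest muscle marker sum of all 24, 486 FPKM against 2635 to 15015 in the other 3 abdomen mice, and the part of this in the Otx1 value was not tested.

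Foxl2 (chr9:98955607-98958126) was detected in every cheek library, with 0.58, 0.53, 0.26 and 0.52 FPKM unwounded and 0.38, 0.34, 0.23 and 0.21 FPKM in the wounds. Outside the cheek it was above 0 in 2 of 16 libraries, at 0.02 FPKM in the unwounded abdomen of mouse 4 and 0.03 FPKM in the unwounded back of mouse 4. The lowest cheek value, 0.21 FPKM, thus lay above every abdomen and back value, and abdomen and back overlapped with each other. A non-coding antisense gene starts beside Foxl2, and the sources used here do not say whether strand was used in counting, so reads of this neighbour cannot be told apart.

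Nkx2-5 (chr17:26838664-26844988), best known from heart development, had 0.74, 0.78, 0.36 and 0.32 FPKM in unwounded cheek and 0.53, 0.47, 0.27 and 0.20 FPKM in cheek wounds. It was 0 in all 16 abdomen and back libraries. Of 18362 genes with a unique symbol, Nkx2-5 was the only 1 at 0 in those 16 libraries and above 0 in all 8 cheek libraries. The wider pattern, every cheek library above all abdomen and back libraries, was met by 19 genes, or 0.103%, among them the 3 genes chosen for it. Within the cheek, mice 1 and 2 had more Nkx2-5 than mice 3 and 4 in both states, whereas Otx1 was highest in the unwounded skin of mice 3 and 4, the cheek libraries with the raised hair growth genes. Without both mice, an alternative chosen after seeing the data, unwounded cheek exceeded abdomen in Otx1 by 1.87 on log2(FPKM + 0.5), against 2.23 with all mice.

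**Figure D1:**
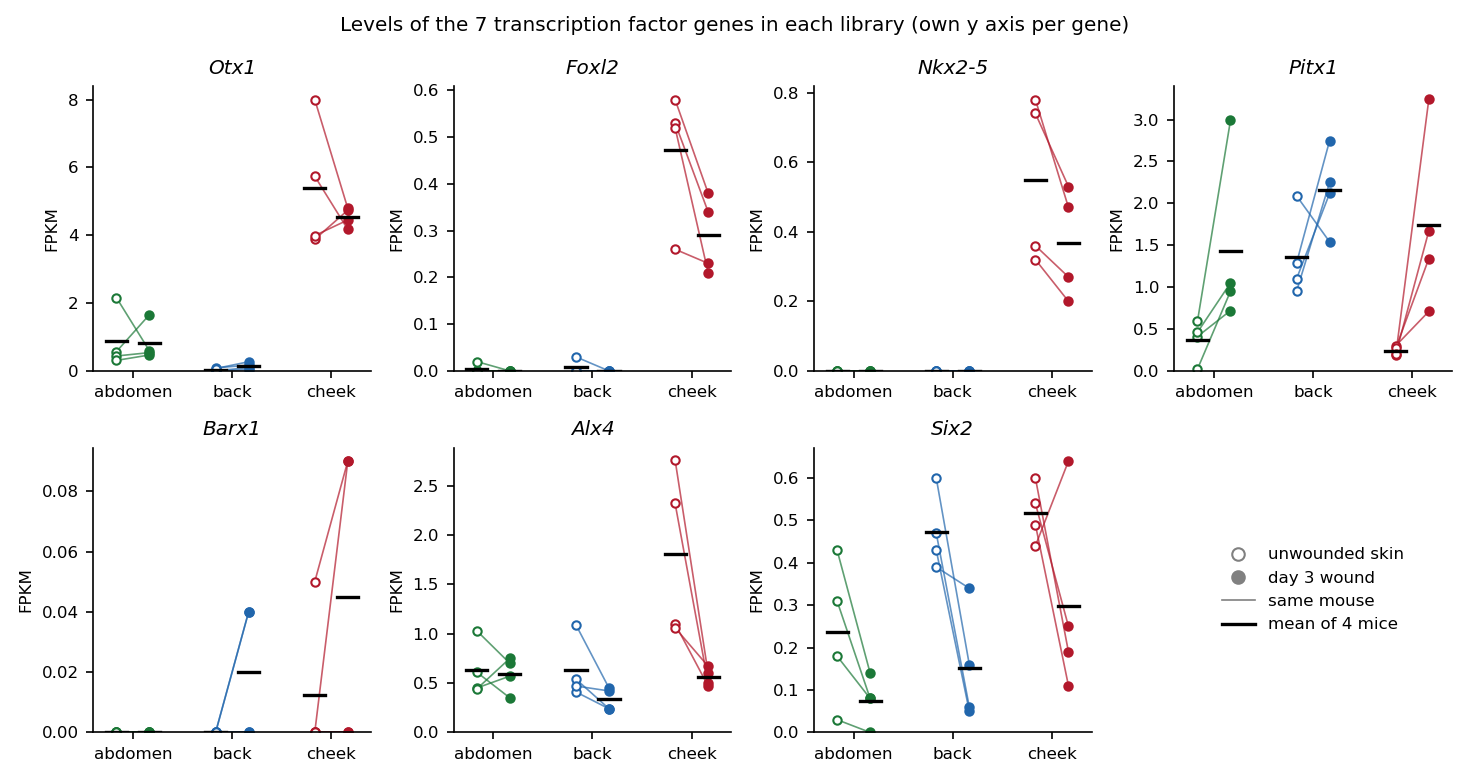
FPKM of each of the 7 genes (y axis, own scale per gene) in unwounded skin (open circles) and day 3 wounds (filled circles) by site, with lines joining the 2 libraries of a mouse and black bars for the mean of 4 mice. Otx1, Foxl2 and Nkx2-5 separate cheek from the other sites in both states, Pitx1 has its lowest mean in unwounded cheek, 0.24 FPKM, and Barx1 is at 0 in 19 of 24 libraries.

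Wounding left Otx1 without a called change at any site. In back Otx1 was higher in the wound in 4 of 4 mice, with means of 0.04 FPKM unwounded and 0.145 FPKM in wounds. Its mean wound minus unwounded difference on log2(FPKM + 0.5) was 0.03 for abdomen mice, 0.25 for back mice and -0.18 for cheek mice (limma with a term for each mouse, adjusted p = 0.94, 0.49 and 0.65). Foxl2 and Nkx2-5 stayed below the minimum level for the fit, 0.5 FPKM in at least 4 libraries, yet both were lower in the wound than in the unwounded skin in 4 of 4 cheek mice. The mean difference was -0.29 for Foxl2 and -0.26 for Nkx2-5, and wound means were 0.614 and 0.668 of the unwounded means. With 4 mice the exact two-sided sign-flip permutation test gave p = 0.125 for each, and for Otx1 in back, the smallest it can give. In the same cheek wounds the fibroblast marker sum was 6136 to 11335 FPKM against 9385 to 15689 in unwounded cheek, and the muscle sum 4677 to 6572 against 10964 to 22155; their part in the lower levels was not tested.

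Among the 4 genes not chosen on their levels, Pitx1 (chr13:55825044-55836190), a paired-type homeobox gene of hindlimb and lower jaw, was highest in the back. Unwounded back had 1.10, 2.09, 0.95 and 1.29 FPKM in mice 1 to 4. Unwounded abdomen had 0.59, 0.02, 0.41 and 0.46 FPKM, and unwounded cheek 0.30, 0.27, 0.19 and 0.20 FPKM. The abdomen library at 0.02 FPKM, mouse 2, had the lowest muscle marker sum of all 24 libraries, 486 FPKM. Unwounded cheek, with the lowest Pitx1 mean at 0.24 FPKM, had muscle sums of 10964 to 22155 FPKM, beside 13689 to 21574 in unwounded back. The part of muscle in the Pitx1 values was not tested. All back values lay above all abdomen and cheek values, and abdomen and cheek overlapped. Pitx1 reached the minimum of 0.5 FPKM for the fit in 5 unwounded libraries, the 4 of back and that of abdomen mouse 1. It thus entered the fit through the site where it was highest, and the comparisons with back depend on that entry. Back exceeded abdomen by 1.11 on the log2 scale (SE 0.24, limma, adjusted p = 0.029) and cheek was below back by a log2 difference of -1.29 (SE 0.24, adjusted p = 0.022), while cheek and abdomen differed by -0.18 (SE 0.24, adjusted p = 0.72). Of these 4 genes Pitx1 and Alx4 were in the fit, and Pitx1 was the 1 called in the first and second of these comparisons. There 2.67% and 1.05% of all tested genes were called. The median of all tested genes was itself -0.12 in the first and 0.14 in the second of these comparisons, opposite in sign to Pitx1. Without abdomen mouse 2 or 3, or back mouse 2 or 4, the first call was lost, with log2 differences of 0.88, 1.15, 0.94 and 1.12 and adjusted p = 0.072, 0.075, 0.089 and 0.058. The second was lost without back mouse 2 or 4 or without cheek mouse 2, 3 or 4, with log2 differences of -1.12, -1.30, -1.31, -1.26 and -1.27 and adjusted p = 0.062, 0.051, 0.052, 0.073 and 0.052.

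Pitx1 rose in wounds. Abdomen wounds had 2.99, 0.95, 0.72 and 1.05 FPKM and cheek wounds 0.71, 1.34, 3.24 and 1.67 FPKM, in both cases above every unwounded library of that site. Back wounds had 2.12, 1.54, 2.25 and 2.75 FPKM, higher than the unwounded skin in 3 of 4 mice. The rise was 1.07 on the log2 scale in abdomen (SE 0.29, limma, adjusted p = 0.015, 4 of 4 mice) and 1.48 in cheek (SE 0.29, adjusted p = 0.0021, 4 of 4 mice). In back the difference was 0.54 (SE 0.29, adjusted p = 0.15). The test of whether the 3 wound effects differed gave adjusted p = 0.46. In wounds the sites overlapped, with means of 1.43 ± 1.05, 2.17 ± 0.50 and 1.74 ± 1.08 FPKM in abdomen, back and cheek, and no pair of sites was called. The abdomen call was lost without abdomen mouse 1 (log2 0.86, adjusted p = 0.076) or mouse 2 (0.93, adjusted p = 0.065). In abdomen the epidermal marker sum was 7314 to 10138 FPKM unwounded and 10635 to 18565 in wounds. In cheek it was 5586 to 7359 FPKM unwounded and 10356 to 16240 in wounds. It was also higher in back wounds, at 13600 to 15367 FPKM against 6749 to 10401 unwounded, where the Pitx1 difference was not called. The muscle sum was lower in cheek wounds, at 4677 to 6572 FPKM against 10964 to 22155 unwounded. It was also lower in back wounds, at 3116 to 4515 FPKM against 13689 to 21574. In abdomen the ranges overlapped, with 1726 to 5225 FPKM in wounds and 486 to 15015 unwounded. The parts of epidermis and muscle in the Pitx1 rise were not tested.

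**Figure D2:**
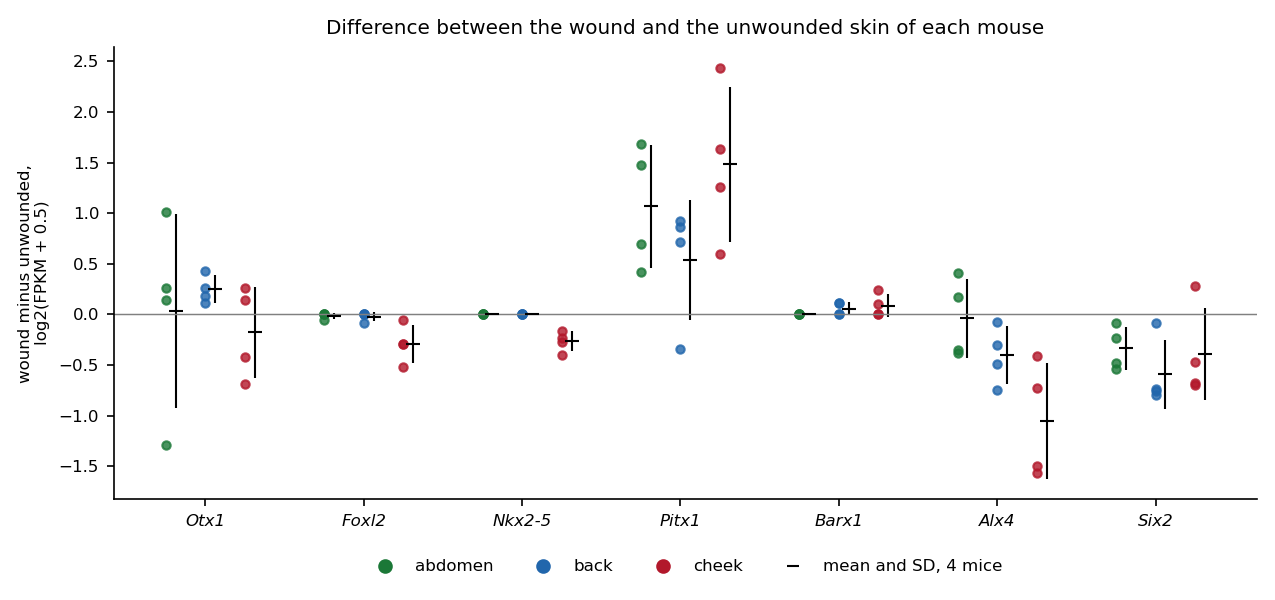
Wound minus unwounded difference in log2(FPKM + 0.5) (y axis) for each mouse (coloured points) by gene and site, with the mean and SD of 4 mice in black. Pitx1 lies above 0 in 4 of 4 abdomen and cheek mice, and Alx4 below 0 in 4 of 4 cheek and back mice.

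Alx4 (chr2:93642434-93681341), a paired-type homeobox gene whose loss disturbs the skull vault and the hair, had 1.10, 1.06, 2.32 and 2.76 FPKM in unwounded cheek. In unwounded abdomen it had 0.61, 0.45, 0.44 and 1.03 FPKM, and in unwounded back 1.09, 0.41, 0.54 and 0.47 FPKM. The lowest cheek value, 1.06 FPKM, was above all abdomen values and below the 1.09 FPKM of back mouse 1. Cheek exceeded abdomen by 0.98 (SE 0.28) and back by 0.99 (SE 0.28) on the log2 scale, and neither difference passed the threshold (limma, adjusted p = 0.078 and 0.11). Neither Pitx1 nor Alx4, those of the 4 genes in this fit, was called for cheek against abdomen in unwounded skin, where the background was 2.57%. At an unadjusted p under 0.05 Alx4 passed in both limma comparisons, a criterion that 5.50% of all tested genes met with the same sign in both. A single fit of all 24 libraries called both differences, with adjusted p = 0.011 and 0.016, and so did the cheek against abdomen fit without abdomen mouse 4 (adjusted p = 0.045).

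In the cheek, Alx4 fell with wounding to 0.47, 0.67, 0.50 and 0.60 FPKM, below every unwounded cheek library. The log2 change was -1.05 (SE 0.21, limma, adjusted p = 0.0018, lower in 4 of 4 mice), and it stayed called on leaving out any 1 mouse. Back wounds had 0.45, 0.24, 0.24 and 0.42 FPKM, with a log2 difference of -0.40 (SE 0.21, adjusted p = 0.13, lower in 4 of 4 mice). In abdomen wounds, at 0.35, 0.57, 0.75 and 0.70 FPKM, the difference was -0.04 (SE 0.21, adjusted p = 0.90). The 3 wound effects did not pass the test of a difference among them (adjusted p = 0.27, unadjusted p = 0.013). In wounds no pair of sites was called for Alx4, and back lay lowest with all its values below those of cheek.

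Hair growth genes moved with Alx4 in 2 cheek mice. The summed level of 8 such genes was 22.6 and 4106 FPKM in the unwounded cheek of mice 3 and 4, where Alx4 was highest, against 4.83 and 4.33 FPKM in mice 1 and 2 and 4.00 to 4.19 FPKM in the 4 cheek wounds. In the unwounded back of mouse 2 the sum was 65.9 FPKM, while Alx4 was 0.41 FPKM there, the lowest back value. Without cheek mice 3 and 4 the Alx4 wound difference in cheek was -0.57 with adjusted p = 0.10, and unwounded cheek exceeded abdomen by 0.51 with adjusted p = 0.32. The Pitx1 wound difference in cheek was 0.93 with adjusted p = 0.079 in the same fit.

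Six2 (chr17:85662736-85688254), a homeobox gene of the sine oculis family, was detected at similar levels in unwounded back and cheek. Unwounded cheek had 0.44, 0.49, 0.54 and 0.60 FPKM and unwounded back 0.47, 0.39, 0.43 and 0.60 FPKM. Unwounded abdomen had 0.43, 0.03, 0.18 and 0.31 FPKM, all below the cheek values and overlapping with back. Six2 was under the minimum level for the fits between sites, so exact two-sided permutation tests of 4 against 4 mice were used, for which the smallest possible p is 0.029. Cheek exceeded abdomen by 0.28 FPKM (exact p = 0.029), back exceeded abdomen by 0.235 FPKM (exact p = 0.086) and cheek exceeded back by 0.045 FPKM (exact p = 0.46). These p-values are among 12 such tests over Six2 and Barx1 and are not adjusted for that number.

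In wounds Six2 was at 0.06, 0.34, 0.05 and 0.16 FPKM in back, at 0.14, 0, 0.08 and 0.08 FPKM in abdomen and at 0.64, 0.11, 0.25 and 0.19 FPKM in cheek. It fell in back, where all wounds were below all unwounded libraries, by a log2 change of -0.59 (SE 0.18, limma, adjusted p = 0.018, lower in 4 of 4 mice). The difference was -0.33 in abdomen (SE 0.18, adjusted p = 0.17, lower in 4 of 4 mice) and -0.39 in cheek (SE 0.18, adjusted p = 0.11), where mouse 1 alone was higher in the wound. The back call was lost without back mouse 1 (log2 -0.53, adjusted p = 0.068) or mouse 3 (-0.54, adjusted p = 0.070). Just 4 libraries put Six2 at the minimum level, so it left the fit without back mouse 4 or without cheek mouse 1, 3 or 4. Of these libraries 3 were unwounded, those of back mouse 4 and cheek mice 3 and 4, and 1 was the wound of cheek mouse 1. Six2 thus entered the fit mostly through the state where it was higher, and the back call depends on that entry. Between wounds the exact permutation p was 0.057 (cheek and abdomen), 0.46 (back and abdomen) and 0.40 (cheek and back).

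Skeletal muscle genes moved with Six2 in part of the libraries. The summed level of 8 muscle genes was 13689 to 21574 FPKM in unwounded back and 3116 to 4515 in back wounds. In unwounded abdomen the mice with the least Six2, mice 2 and 3, had muscle sums of 486 and 2635 FPKM, and mice 1 and 4 had 15015 and 13925. Wounding did not move both the same way in every mouse. In abdomen mice 2 and 3 the muscle sum was higher in the wound, at 2462 and 4028 FPKM, while Six2 was lower there. In cheek mouse 1 the muscle sum was 19944 FPKM unwounded and 6572 in the wound, while Six2 was 0.44 and 0.64 FPKM. The other 3 cheek mice had less of both in the wound. Over the 24 libraries, which come in pairs from 12 mice, the genes with the most similar pattern to Six2 were Ckmt2, a mitochondrial creatine kinase of muscle, Cox7a1, a muscle subunit of cytochrome oxidase, and Slc2a4, an insulin-responsive glucose transporter, with Pearson r of 0.87, 0.86 and 0.85. Whether muscle content sets the Six2 differences was not tested.

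Barx1 (chr13:48663036-48666507), a jaw and stomach homeobox gene, was close to absent. It was 0 in 19 of 24 libraries and at 0.04 FPKM in the back wounds of mice 3 and 4, at 0.05 FPKM in the unwounded cheek of mouse 1 and at 0.09 FPKM in the cheek wounds of mice 1 and 3. The exact permutation p between sites was 1.0 for the 3 unwounded pairs and 0.43 for the 3 wound pairs. No order of sites can be read from such values.

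**Figure D3:**
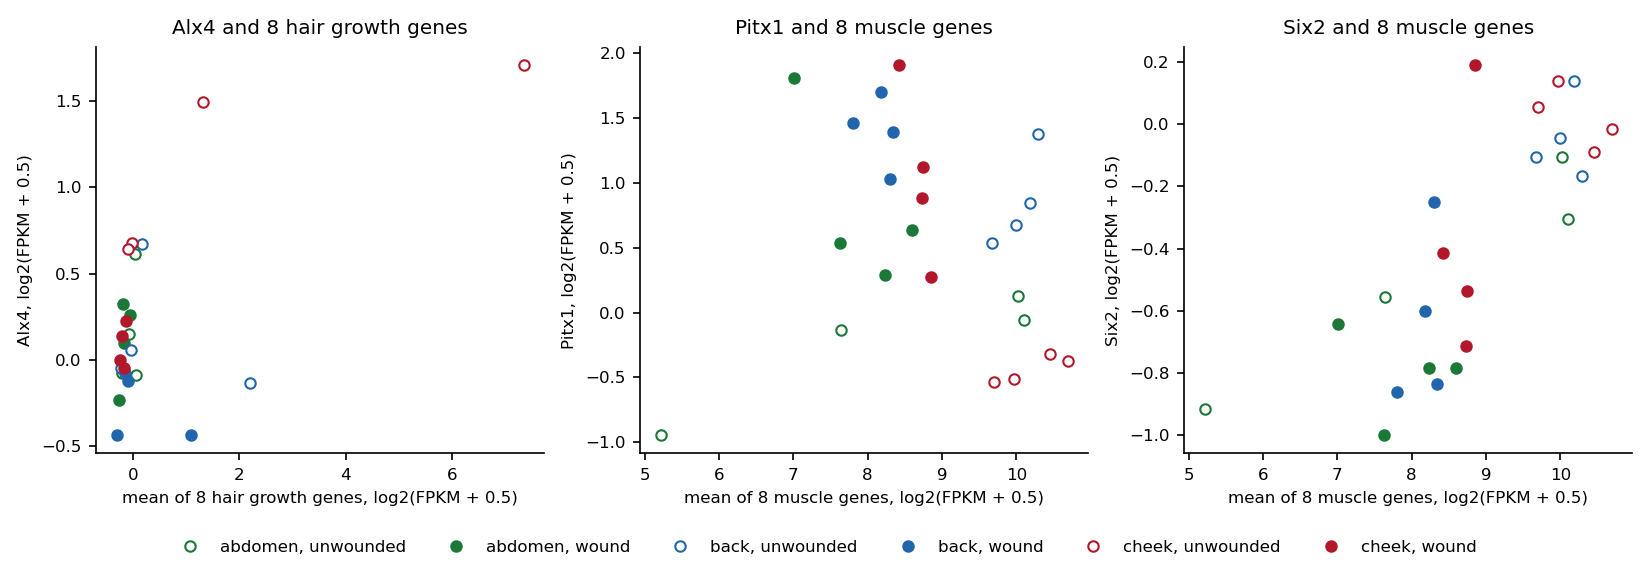
Level of Alx4 against the mean of 8 hair growth genes, and of Pitx1 and Six2 against the mean of 8 muscle genes, all on log2(FPKM + 0.5), with 1 point per library (colour for site, open for unwounded, filled for wound). The 2 unwounded cheek libraries with the most Alx4, at 2.32 and 2.76 FPKM, had hair growth means of 1.32 and 7.35, while an unwounded back library with 0.41 FPKM of Alx4 lies at 2.19, and the libraries with the least Six2 lie to the left in the third panel.

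Counted together, wounding was called for 1 of the 7 genes in abdomen (Pitx1, 32.9% of all tested genes called), 1 in back (Six2, 45.9%) and 2 in cheek (Pitx1 and Alx4, 36.6%), with 3 of the 7 genes under the minimum level. Beside backgrounds of this size, counts of 1 or 2 are no result about the 7 genes as a set. By limma, 0 of Pitx1, Alx4 and Six2 were called for a wound effect that differed between sites, against 0.0208% of all genes. Between wounds of different sites 0 of the 4 genes not chosen on their levels, of which Pitx1 and Alx4 reached the fit, were called by limma, with backgrounds of 1.27% (back against abdomen), 10.8% (cheek against abdomen) and 2.5% (cheek against back). For Alx4 the log2 differences between wounds were -0.38 for back against abdomen (limma, adjusted p = 0.24) and 0.35 for cheek against back (adjusted p = 0.18).

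The 7 genes were also set against each other and against the other genes. Foxl2 and Nkx2-5 were the most alike pair, with Pearson r of 0.97 over the 24 libraries, and Otx1 had r of 0.84 with Foxl2 and 0.82 with Nkx2-5. The shared split between 8 cheek and 16 other libraries enters each of these values. Pitx1 and Alx4 ran opposite, with r of -0.62. Of other genes, the pattern of Otx1 was closest to Hacl1, a peroxisomal lyase, Rhox4a, a homeobox gene from a family of close copies, and Gm13124, with r of 0.94, 0.93 and 0.87. Rhox4a was also closest to Foxl2 (r of 0.93) and Nkx2-5 (r of 0.91), and its means were 2.58 FPKM in unwounded cheek, 0.11 in unwounded abdomen and 0 in unwounded back, although counts of near-identical copies are uncertain. Hspa9 and Gfm1 followed for Foxl2, both with r of 0.88, and Gfm1 and Hccs for Nkx2-5, with r of 0.87 and 0.86. The split between cheek and other libraries, on which Otx1, Foxl2 and Nkx2-5 were chosen, enters their r with other genes too. Alx4 was closest to Ptch1, the Hedgehog receptor (r of 0.91), Mycn (0.86) and Fbxo21 (0.85). Pitx1 was closest to Ddah1 (0.86), the lactate exporter Slc16a3 (0.83) and Impdh1 (0.83). For Barx1 no gene passed r of 0.66, reached by Akr1c18, followed by Rchy1 and Nr2f1 (both 0.65).

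A list of 64 other craniofacial and neural crest transcription factors gave the surroundings of the 7 genes. It held 18 relatives of the same families, 30 factors of the facial mesenchyme and 16 that specify neural crest, and 60 were in the file. In unwounded skin 0 of 40 tested were called by limma in cheek against both other sites, where 0.33% of all genes were, and in wounds 0 of 38, where 1.47% were. At an unadjusted p under 0.05 in both comparisons there were 5 in unwounded skin, among them Msx1, Shox2 and Tbx1 higher and Osr2 lower in cheek, and 4 in wounds, among them Six4, Eya1 and Nr2f1 higher. The same criterion was met by 5.50% of all tested genes in unwounded skin and 14.9% in wounds, beside 12.5% and 10.5% of the listed genes. These genes are named after their values were seen. Msx1 and Tbx1 were highest in unwounded cheek mouse 4, at 12.7 and 30.12 FPKM, where the hair growth sum was 4106 FPKM. In the other cheek mice they were at 3.24 to 4.6 and 14.51 to 22.25 FPKM. Shox2 was highest in cheek mouse 1, at 10.42 FPKM. The part of hair growth in these values was not tested. The median difference of the 40 genes was 0.12 for cheek against abdomen and 0.25 for cheek against back in unwounded skin, beside 0.03 and 0.14 for all tested genes. In wounds the medians over 38 genes were -0.02 and 0.15, beside 0.07 and 0.09.

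Otx2, the paralogue of Otx1, was looked up with its values known and was at 0 in all but 1 library, an abdomen wound at 0.03 FPKM.

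Single comparisons of the listed genes were called in few cases. In unwounded skin, of 40 tested, 2 were lower in back than in abdomen, Hand2 and Tfap2b, 1 was lower in cheek than in abdomen, Osr2, and 1 was higher in cheek than in back, Hand2. These are 5%, 2.5% and 2.5% of the listed genes, beside 2.67%, 2.57% and 1.05% of all genes. In wounds, of 38 tested, 2 were lower in back than in abdomen (Hand2 and Msx1), 3 were higher in cheek than in abdomen (Six4, Ets1 and Nr2f1) and 2 lower (Hand2 and Osr2). These are 5.26% and 13.2% of the listed genes, beside 1.27% and 10.8% of all genes. Hand2, a factor of jaw, heart and limb, was the 1 listed gene of 41 whose wound effect differed between sites (adjusted p = 0.043), and it fell in cheek wounds by a log2 change of -1.74 (adjusted p = 5.3e-06). Wounding raised 7 and lowered 6 of the 41 listed genes in abdomen, raised 7 and lowered 8 in back, and raised 5 and lowered 11 in cheek. The called shares were 31.7%, 36.6% and 39.0%, beside 32.9%, 45.9% and 36.6% of all genes, so the listed share was lower in back. Of all genes 2437 rose and 2304 fell in abdomen, 4044 and 2578 in back and 2840 and 2432 in cheek. In cheek more listed genes fell than rose, unlike all genes, and this difference was not tested.

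**Figure D4:**
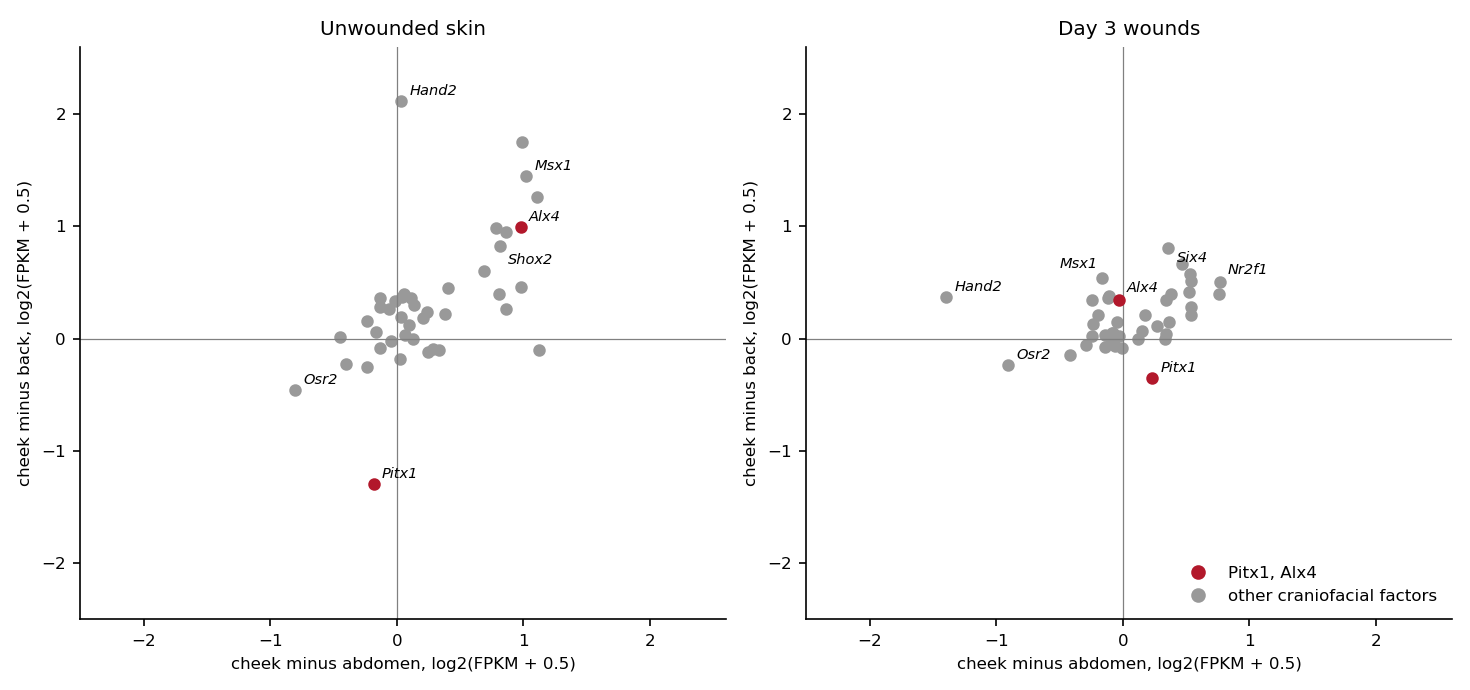
Cheek minus abdomen (x axis) and cheek minus back (y axis) differences in log2(FPKM + 0.5) for the listed craniofacial factors (grey) and for Pitx1 and Alx4 (red), in unwounded skin (left) and day 3 wounds (right). In unwounded skin Alx4 lies with Msx1 in the upper right and Pitx1 lies lowest, at -0.18 and -1.29, while in wounds both are closer to 0 on the y axis, at -0.35 for Pitx1 and 0.35 for Alx4.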

How the data were processed

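The authors made the deposited FPKM values from 100-base paired-end BGISEQ-500 reads of total RNA, mapped to GRCm38/mm10 with HISAT2 and Bowtie2 2.2.5 and quantified with RSEM 1.2.12. A second deposited file held the authors' DESeq2 log2 fold changes and adjusted p-values and was not used. Groups came from the sample labels. Here log2(FPKM + 0.5) was tested with limma 3.58.1 (R 4.3.3; trend and robust moderation) for genes with at least 0.5 FPKM in 4 libraries of a fit, with Benjamini-Hochberg adjustment over all tested genes and a threshold of 0.05. Sites were compared within the 12 unwounded and the 12 wound libraries, and wound effects in 1 fit of 24 libraries that held a term per mouse. The labels place both libraries in 1 animal, and their deviations from group means correlated at 0.32, 0.35 and 0.28 on average in abdomen, back and cheek. P-values between sites measure the spread between mice. Those for wounding measure the spread of the within-mouse differences, which the limma fit pools over the 3 sites. The study's own count model needs read counts, not used here. Genes under the minimum level got exact permutation tests. Likeness was Pearson r over 24 libraries, with the 3 closest genes named per member. The fits were tested on simulated data. The 7 genes, the lists of other factors and the lists of marker genes were chosen with earlier results of these data known. Alternatives were other pseudocounts, minimum levels, scalings, moderation, fits and thresholds and leaving out mice. Coordinates are from RefSeq, GRCm38.p6, the build of the files. Some listed genes are not reported here.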

Additional observations from a re-analysis of the deposited data

Results flagged for a closer look

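In 6 of 42 groups of 4 libraries (7 genes, 3 sites, 2 states), 33 of them not constant, the highest library stood far from the other 3 by Dixon's criterion. Chance alone meets it in about 1 in 20 groups. Otx1 was 2.16 FPKM in the unwounded abdomen of mouse 2 against 0.31 to 0.57 in the others, and 1.66 FPKM in the abdomen wound of mouse 1 against 0.47 to 0.59. Pitx1 was 2.99 FPKM in the abdomen wound of mouse 1 against 0.72 to 1.05. That rate does not apply to the other 3, where the rest of the group was at 0 and any detected value meets the criterion, namely Foxl2 at 0.02 FPKM in unwounded abdomen and 0.03 FPKM in unwounded back and Barx1 at 0.05 FPKM in unwounded cheek.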

How the results depend on the processing

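No comparison of these genes turned its direction while called under any alternative that was run. Without the block for mice (no replicate block), the counts of called genes for wounding stayed at 1 in abdomen, 1 in back and 2 in cheek. For unwounded back against abdomen the count of 1 became 0 with a pseudocount of 0.1 FPKM, a minimum of 1 FPKM or the mouse number as a replicate block, and was 0 to 1 on leaving out single mice. For unwounded cheek against back, 1 became 0 under the same 3 settings and without cheek mice 3 and 4, 2 with all 24 libraries in 1 fit, and 0 to 1 on leaving out single mice. Mouse numbers pair no animals across sites. For unwounded cheek against abdomen, 0 became 1 with all 24 libraries in 1 fit and was 0 to 1 on leaving out single mice. Listed genes called in cheek against both other sites went from 0 to 2 in unwounded skin with all 24 libraries in 1 fit, and from 0 to 1 in wounds with no minimum level or with no trend or robustness. For wounding, abdomen went from 1 to 0 at a threshold of 0.001 and was 0 to 1 on leaving out single mice. Back went from 1 to 0 with a minimum of 1 FPKM, on its own 8 libraries, without cheek mice 3 and 4 or at a threshold of 0.001, to 2 with quantile normalization, where Alx4 was added (adjusted p = 0.041), and was 0 to 1 on leaving out single mice. Six2 fell under the minimum level without cheek mice 3 and 4, with a minimum of 1 FPKM and on back's own 8 libraries. The minimum of 1 FPKM likewise put Pitx1 out of the unwounded fits between sites. Cheek went from 2 to 4 with no minimum level, which admits Foxl2 and Nkx2-5 with a spread that includes 16 libraries at or near 0, and to 0 without cheek mice 3 and 4 or at a threshold of 0.001. Where no cause is named, it was not tested. Values under 0.5 FPKM rest on few reads of unknown number, which limits Foxl2, Nkx2-5, Six2 and Barx1 most.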
